A study of Mus musculus with 12 samples.

Results

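The genes described here are 10 transcripts, Pgm2l1, Dubr, Plscr4, Vwf, Havcr2, Lama3, Ulbp1, Rnf128, Alox5 and Calcrl, out of 55401 gene identifiers counted in mouse marrow cultures. They were chosen by their higher level in LysM-cKO than in WT cultures titled R40D3, so that difference is given as a description and is not tested. The choice named genes and set no numeric threshold. All 10 passed the filter on low counts, with 14030 genes in total. RNA sequencing covered 4 culture groups of 2 libraries each, WT and LysM-cKO at R40D3 and at R0D3, and 4 forelimb libraries from E12.5 embryos, 2 WT and 2 Prx-cKO. In LysM-cKO mice Impdh2 was deleted in the myeloid lineage, which includes osteoclast precursors, and in Prx-cKO mice in limb mesenchymal progenitors. The enzyme made by Impdh2 takes part in guanine nucleotide synthesis. The labels give a shared protocol text for all culture groups. In it, marrow cells grew for 3 days in supernatant of L929 cells equal to 20 ng/ml of the macrophage growth factor M-CSF. They were reseeded and then received 40 ng/ml RANKL, the cytokine that induces osteoclasts. The labels do not spell out R40D3 and R0D3, which are used as names, and every culture carries the same treatment label. Whether the R0D3 cultures themselves received RANKL therefore cannot be read from the labels. Strain, age and sex of the mice, the number of animals behind a culture and whether replicates came from separate animals are not given in the labels, so p-values measure the spread between these libraries, which may be technical.

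Osteoclasts form when myeloid precursors kept alive by M-CSF respond to RANKL, fuse and switch on a bone-resorbing programme. The 10 genes do not make up one pathway. They include cell-surface and matrix proteins (Havcr2, Ulbp1, Calcrl, Lama3, Vwf), membrane, sugar and lipid enzymes (Plscr4, Pgm2l1, Alox5), a ubiquitin ligase (Rnf128) and a long noncoding RNA (Dubr). Havcr2, which encodes the inhibitory receptor Tim-3, and Alox5, which starts leukotriene synthesis, are known from macrophages and other myeloid cells, whereas Vwf is best known from endothelial cells and platelets and Lama3 from epithelia.

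The culture libraries held 16009146 to 19221865 counts and the forelimb libraries 28892215 to 69466572. The deleted gene itself was at 22.3 and 28.2 CPM (the count relative to library size, after TMM scaling) in WT R0D3, 7.36 and 7.03 in LysM-cKO R0D3, 25.7 and 27.7 in WT R40D3, and 7.72 and 8.38 in LysM-cKO R40D3. Impdh2 fell in LysM-cKO, with log2 fold changes of −1.73 (SE 0.15) at R40D3 and −1.81 (SE 0.16) at R0D3 (edgeR quasi-likelihood, adjusted p = 0.0386 and 0.0324). Both calls also passed with DESeq2 (adjusted p = 2.79e-11 and 3.25e-12) and with the replicate number as a block (edgeR adjusted p = 0.00283 and 0.00239). They were lost when the 4 compared libraries were fitted alone (edgeR adjusted p = 0.579 and 0.407). Each of the 8 fits without 1 culture library lost them too. There the log2 fold change was −1.81 to −1.65 at R40D3 and −1.97 to −1.63 at R0D3. With unscaled library sizes the R40D3 call was lost as well (edgeR adjusted p = 0.0501). In whole Prx-cKO forelimbs, which also hold cells outside the Cre's lineage, the value was −0.53 (SE 0.16, adjusted p = 0.443). Against the cell type label, osteoclast markers were low in all R0D3 cultures. Calcr, the calcitonin receptor, had 0 counts in both R0D3 groups and a mean of 106 CPM in WT R40D3.

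At R40D3 the widest gaps were in Vwf and Lama3. Vwf, the large glycoprotein that tethers platelets to injured vessel walls, was at 7.58 and 4.89 CPM in the WT libraries and at 19.3 and 23.6 CPM in LysM-cKO. Its log2 fold change was 1.77 (SE 0.28), a 3.40-fold level. Lama3, a laminin alpha chain of epithelial basement membranes, was at 14.2 and 11.8 CPM in the WT libraries and at 36.0 and 28.7 CPM in LysM-cKO, a log2 fold change of 1.31 (SE 0.24). For both genes each LysM-cKO library lay above each WT library. In bulk RNA, more cells of a type and more RNA per cell cannot be told apart.

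Among the surface receptors and ligands, Havcr2 was at 26.2 and 24.1 CPM in WT R40D3 and at 43.7 and 42.8 CPM in LysM-cKO R40D3 (log2 fold change 0.78, SE 0.13). Ulbp1 encodes a stress-induced ligand of the killer-cell receptor NKG2D. It was at 21.7 and 27.7 CPM in the WT libraries and at 40.7 and 50.3 CPM in LysM-cKO (0.88, SE 0.19). Calcrl encodes the receptor that binds CGRP or adrenomedullin together with a RAMP partner protein. It had the smallest gap of the 10, with 33.8 and 32.5 CPM in WT and 48.3 and 45.3 CPM in LysM-cKO (0.50, SE 0.086). None of these 3 genes had overlapping genotypes at R40D3.

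Of the enzymes, Plscr4, a phospholipid scramblase family member, was at 8.21 and 6.78 CPM in WT R40D3 and at 14.97 and 17.3 CPM in LysM-cKO R40D3 (log2 fold change 1.10, SE 0.16). Alox5, 5-lipoxygenase, was at 21.9 and 19.1 CPM in the WT libraries and at 38.7 and 31.5 CPM in LysM-cKO (0.78, SE 0.14). Pgm2l1 makes glucose-1,6-bisphosphate, the cofactor of phosphoglucomutases. It was at 62.2 and 66.9 CPM in the WT libraries and at 112 and 106 CPM in LysM-cKO (0.76, SE 0.10). The spread between replicates of these genes was small beside the gap between genotypes.

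Rnf128 encodes GRAIL, a membrane-bound ubiquitin ligase known for restraining T-cell activation. It was at 125.9 and 126.3 CPM in WT R40D3 and at 200.8 and 204.1 CPM in LysM-cKO R40D3 (log2 fold change 0.68, SE 0.12). Dubr, a long noncoding RNA described next to Dppa2, was at 13.7 and 14.05 CPM in the WT libraries and at 23.5 and 26.6 CPM in LysM-cKO (0.85, SE 0.12). Both were therefore separated by genotype, like the other 8.

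As a summary of the contrast that chose them, all 10 genes had both LysM-cKO libraries above both WT libraries, as had 19.7% of the genes tested. With edgeR none of the 10 passed an adjusted p of 0.05, and 0% of all genes were called higher, although all 10 had an unadjusted p under 0.05. DESeq2 called 9 of them among 15 genes higher. With the replicate number as a block, 9 were called, all but Calcrl, among 17 genes (0.121%). Their median log2 fold change was 0.82, against −0.01 for all genes tested. Nothing is read from these counts, since the same values selected the genes.

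**Figure D1:**
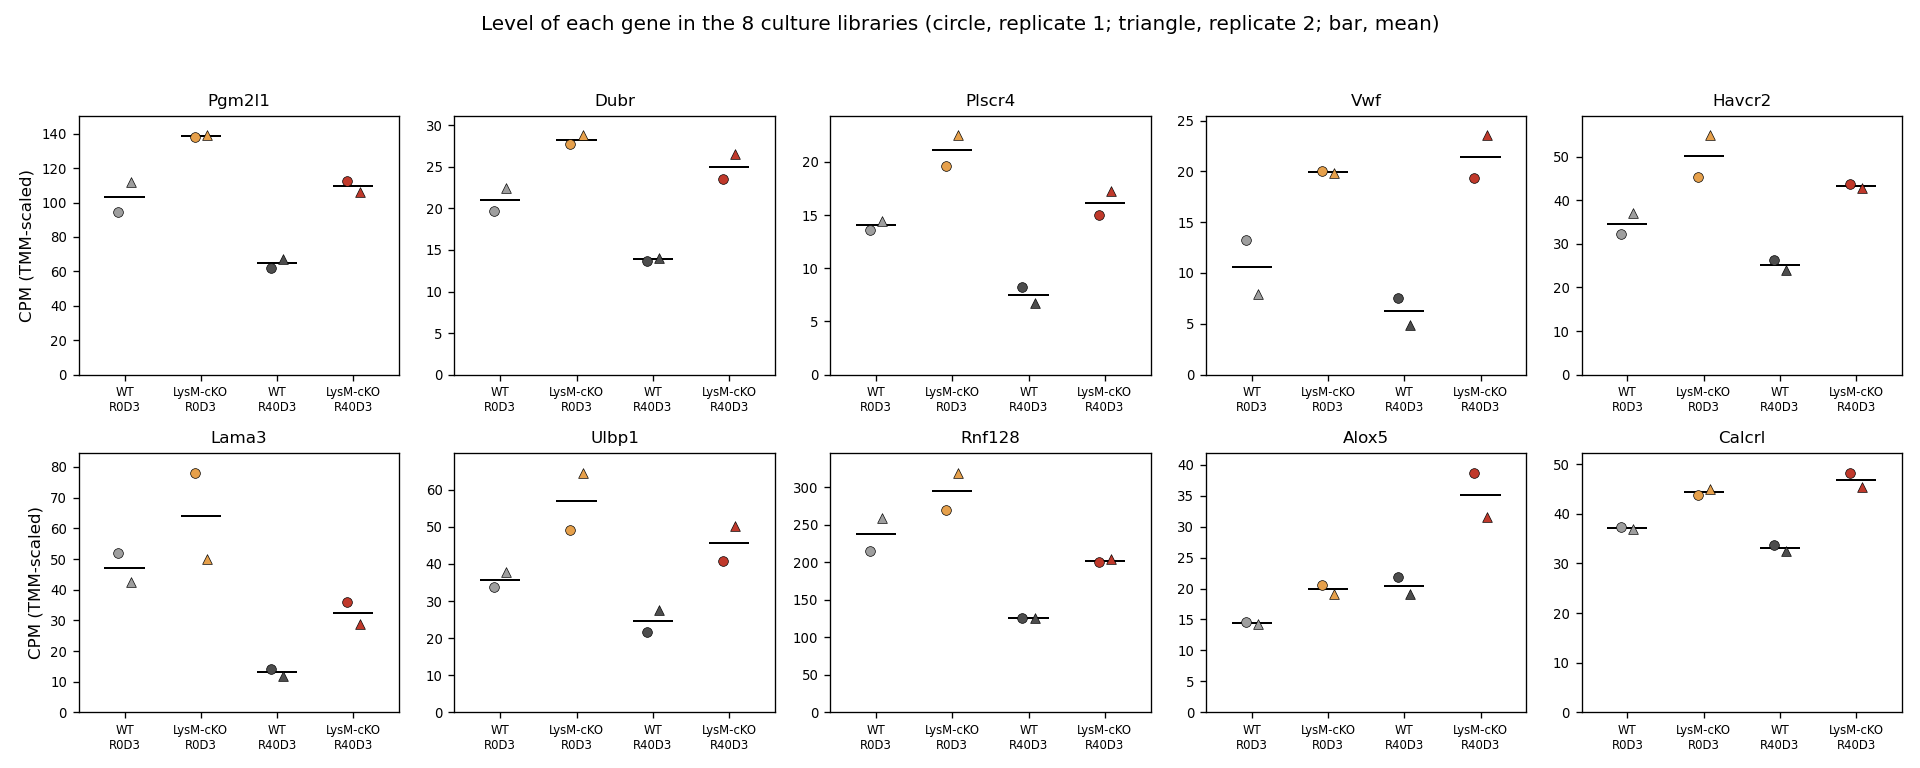
CPM on TMM-scaled library sizes (vertical axis, starting at 0 and set per gene) of the 10 genes in the 8 culture libraries, grouped by genotype and culture title; points are single libraries and bars the mean of 2. At R40D3 each LysM-cKO point lies above each WT point, and Lama3 is the gene whose R0D3 genotypes overlap.

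The same genotype comparison at R0D3 takes its means from 4 libraries other than the R40D3 ones that chose the genes. Same-numbered cultures of the titles deviate together (r = 0.609 between the LysM-cKO groups and 0.465 between the WT groups, across genes). The edgeR fit also shared its estimate of spread over all 8 culture libraries, so its p-values at R0D3 are not independent of the choice. All 10 genes were again at a higher mean in LysM-cKO, in both replicate numbers, with a median log2 fold change of 0.45 against 0.01 for all genes. None passed the adjusted threshold (edgeR, adjusted p = 0.997 for each), and 0% of all genes were called higher. DESeq2 called 4 genes higher, none of the 10. Before adjustment, 9 of the 10 genes were higher at the 0.05 level of the edgeR test, against 3.02% of the genes tested. Lama3 was the exception in that fit, which leaves out the replicate number. With the replicate block Lama3 was higher at that level too, as were 6.53% of the genes tested. Its log2 fold change with the block was 0.42 (SE 0.10). In 9 genes, all but Lama3, both LysM-cKO libraries lay above both WT libraries, against 17.5% of genes. With the replicate block, adjusted p ran from 0.118 for Ulbp1 to 0.314 for Calcrl, and 1 gene in all (0.00713%) was called higher.

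Vwf at R0D3 was at 13.2 and 7.96 CPM in the WT libraries and at 20.0 and 19.8 CPM in LysM-cKO, a log2 fold change of 0.91 (SE 0.26). Its WT libraries differed from each other more than its LysM-cKO libraries. Without WT R0D3 replicate 2 the value was 0.59 and without replicate 1 it was 1.32. Ulbp1 was at 33.8 and 37.8 CPM in the WT libraries and at 49.1 and 64.6 CPM in LysM-cKO (0.67, SE 0.18). Plscr4 was at 13.6 and 14.4 CPM in the WT libraries and at 19.7 and 22.6 CPM in LysM-cKO (0.59, SE 0.15), and in these genes the genotypes did not overlap.

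Havcr2 was at 32.2 and 37.1 CPM in WT R0D3 and at 45.4 and 55.1 CPM in LysM-cKO R0D3 (log2 fold change 0.54, SE 0.12). Alox5 was at 14.6 and 14.2 CPM in the WT libraries and at 20.6 and 19.2 CPM in LysM-cKO (0.46, SE 0.14). Lama3 was at 51.9 and 42.4 CPM in the WT libraries and at 78.2 and 49.9 CPM in LysM-cKO (0.44, SE 0.22). Its lower LysM-cKO library, replicate 2, lay below its higher WT library, replicate 1. Within replicate numbers 1 and 2 LysM-cKO lay above WT by 0.59 and 0.23 on the log2 scale. The value fell to 0.056 without LysM-cKO R0D3 replicate 1. The remaining 4 genes had smaller gaps, with log2 fold changes of 0.43 for Pgm2l1 (SE 0.10), 0.43 for Dubr (SE 0.12), 0.31 for Rnf128 (SE 0.12) and 0.26 for Calcrl (SE 0.086). Without LysM-cKO R0D3 replicate 2 the value of Rnf128 was 0.18.

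The gap between genotypes was wider at R40D3 than at R0D3 in each of the 10 genes. The excess, on the log2 scale, ran from 0.22 for Ulbp1 to 0.87 for Lama3, with a median of 0.35. Because the R40D3 libraries chose the genes, this difference of differences is a description with no test.

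**Figure D2:**
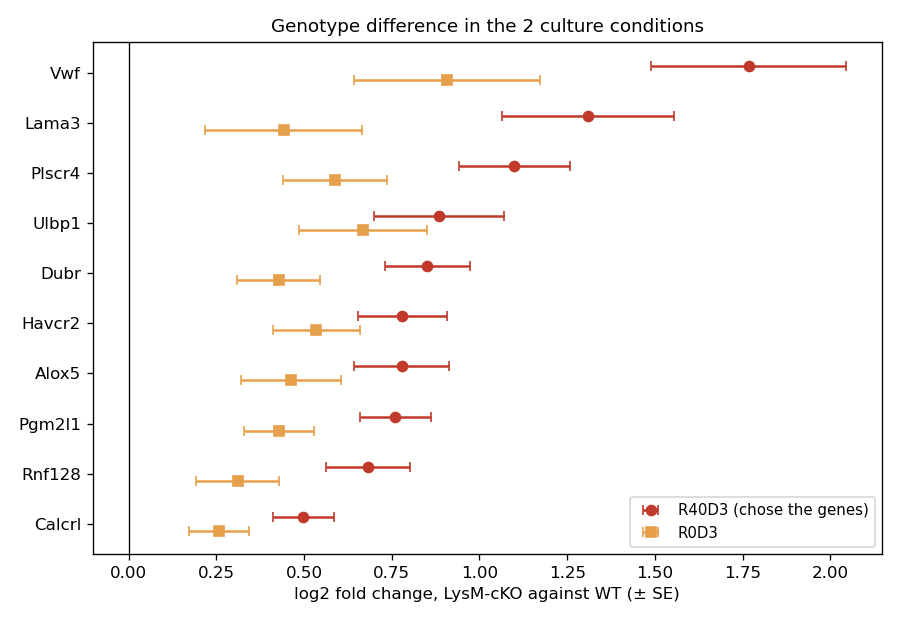
log2 fold change of LysM-cKO against WT (horizontal axis, bars ± SE) for each gene at R40D3, the contrast that chose the genes, and at R0D3. All 20 values are above 0, from 0.26 for Calcrl at R0D3 to 1.77 for Vwf at R40D3, and each R0D3 value is the smaller of its pair.

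The genes also differed between the culture titles. Averaged over genotypes, a contrast that does not draw on the genotype gap at R40D3, 7 of the 10 fell at R40D3 (edgeR quasi-likelihood, adjusted p under 0.05), against 10.3% of all genes tested, and 1, Alox5, rose, against 15.6%. Their median log2 fold change was −0.41, against 0.01 for all genes. The p-values of this contrast also used the spread shared with the R40D3 genotype comparison. The osteoclast markers moved in the other direction: all 16 rose.

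Lama3 fell most. Its means went from 47.2 ± 6.72 CPM in WT R0D3 to 13.04 ± 1.68 in WT R40D3 and from 64.0 ± 20.0 to 32.3 ± 5.13 in LysM-cKO (SD, n = 2). Averaged over genotypes it fell by 1.42 on the log2 scale (SE 0.17, adjusted p = 0.000943 with edgeR). Rnf128 went from 215.8 and 259.6 CPM in WT R0D3 to 125.9 and 126.3 in WT R40D3, and from 269.8 and 319.8 to 200.8 and 204.1 in LysM-cKO, a mean change of −0.73 on the log2 scale (SE 0.084, adjusted p = 0.000878 with edgeR). In both genes every R40D3 library lay below every R0D3 library of its genotype. Plscr4 fell by 0.64 on the log2 scale (SE 0.11, edgeR adjusted p = 0.00444), and Pgm2l1 by 0.51 (SE 0.071, adjusted p = 0.00194). Pgm2l1 stood at 94.6 and 112 CPM in WT R0D3 and at 138 and 139 CPM in LysM-cKO R0D3.

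Ulbp1, Dubr and Havcr2 fell by less. Their changes on the log2 scale were −0.43 (SE 0.13, adjusted p = 0.0463 with edgeR), −0.39 (SE 0.084, adjusted p = 0.0132) and −0.34 (SE 0.089, adjusted p = 0.0284). These 3 calls depended on single libraries: without WT R0D3 replicate 2 the adjusted p was 0.148, 0.0573 and 0.108 (edgeR), and 5 of the 10 genes passed in place of 8. Ulbp1 also missed the threshold without any one of WT R0D3 replicate 1, WT R40D3 replicate 1, LysM-cKO R40D3 replicate 1 or LysM-cKO R0D3 replicate 2, and with no filter (adjusted p = 0.0538 with edgeR). Havcr2 missed it without replicate 2 of any of the 4 groups, at an adjusted p of 0.0501 to 0.108 (edgeR). Dubr had 19.6 and 22.4 CPM in WT R0D3 and 27.7 and 28.9 in LysM-cKO R0D3.

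Alox5 went the other way. It rose from 14.4 ± 0.27 to 20.5 ± 1.98 CPM in WT and from 19.9 ± 1.04 to 35.1 ± 5.11 CPM in LysM-cKO (SD, n = 2), 0.66 on the log2 scale when averaged (SE 0.098, adjusted p = 0.00253 with edgeR). Vwf (−0.33, SE 0.19, adjusted p = 0.264) and Calcrl (−0.04, SE 0.060, adjusted p = 0.645) did not pass the edgeR threshold. Calcrl stood at 37.4 and 36.9 CPM in WT R0D3 and at 43.9 and 45.0 CPM in LysM-cKO R0D3, so its level was nearly flat between titles.

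Within each genotype the values shared libraries with the choice of genes and are given without a test. In WT the log2 fold change of R40D3 against R0D3 was negative for 9 of 10 genes, from −1.85 for Lama3 to −0.17 for Calcrl, and in LysM-cKO for 7 of 10. Vwf went from 10.6 ± 3.72 to 6.23 ± 1.91 CPM in WT (−0.76) and from 19.9 ± 0.13 to 21.5 ± 3.03 CPM in LysM-cKO (0.10) (SD, n = 2). LysM-cKO R40D3 means lay between the WT means of both titles, or above them: Lama3 and Rnf128 were below WT R0D3, and the other 8 were above it.

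**Figure D3:**
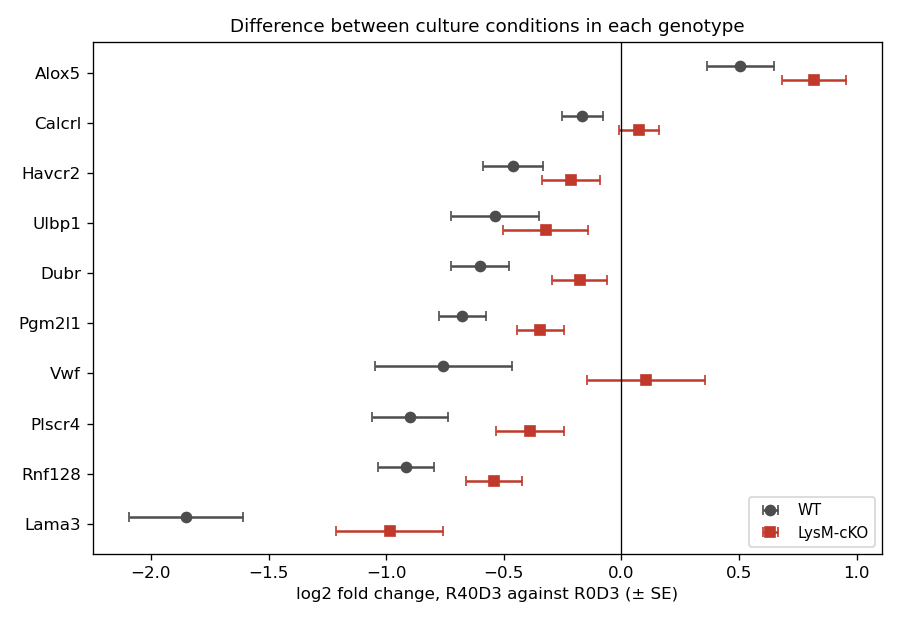
log2 fold change of R40D3 against R0D3 (horizontal axis, bars ± SE) for each gene, in WT and in LysM-cKO. Lama3 has the largest fall in both genotypes, −1.85 and −0.98, Alox5 rises in both, and every LysM-cKO value lies to the right of its WT value.

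Across the 8 culture libraries, 9 genes followed the mean of the other members, with r from 0.78 for Lama3 to 0.98 for Dubr, and Alox5 did not (r = 0.20). These correlations describe libraries that share genotype and title and carry no p. The R40D3 libraries among them chose the members for their genotype gap, so part of the shared pattern was built in. Of 11469 other genes compared, the pattern most like the members' mean was that of Ccdc50 (r = 0.988), followed by Manea (0.963), Cpeb1 (0.960), Cdc73 (0.959) and Rb1 (0.959). Per kilobase of exon, Rnf128 was the most abundant member in every culture group, from 36.4 to 85.1 CPM per kb, and Vwf the least, from 0.388 to 1.34. In WT R0D3 Havcr2 (12.7 ± 1.26 CPM per kb) and Pgm2l1 (10.8 ± 1.27) came next, and Dubr (4.50 ± 0.43) and Lama3 (4.39 ± 0.62) differed by less than their spread (SD, n = 2).

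The 10 genes lay on 9 chromosomes, with Vwf and Alox5 both on chromosome 6. Positions in GRCm38 (GENCODE M21) were 125546774 to 125686679 on the plus strand for Vwf and 116410077 to 116461178 on the minus strand for Alox5. Of the 10, 9 are protein coding and Dubr is a lincRNA. Their genomic spans were long, with a median of 51.3 kb against 20.6 kb for the genes tested, and 24.4% of the tested genes were longer than that median. Lama3 shared 197 exonic bases with the antisense gene Gm29200 and Dubr 114 with Mir6363, both on the opposite strand. Whether counting used strand is not given in the sources used here, so reads of these pairs cannot be told apart. Up to 3.78% of the 50-base words of a member's exons, in Dubr, also occurred in other genes on the same strand. For Impdh2, which is not a member, the share was 39.3%, and how this bears on its counts was not tested.

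Upstream sequence is shown for the 4 members whose 250 bases before the RefSeq start (GRCm38.p6) held no annotated exon. They are shown because Alox5 rose at R40D3 while the other 3 fell. The Rnf128 window lay within the gene's GENCODE span (139563316 to 139673145), so it precedes an internal start. No GENCODE transcript began at the Havcr2 RefSeq start. Capitals mark matches, on either strand, to 6 motifs picked after the sequences had been seen: the PU.1 core GAGGAA, AP-1 TGANTCA, NFAT TGGAAA, the E-box CACGTG, C/EBP TTGCNNAA and the GC-box GGGCGG.
Alox5, chr6:116461179-116461428, minus strand: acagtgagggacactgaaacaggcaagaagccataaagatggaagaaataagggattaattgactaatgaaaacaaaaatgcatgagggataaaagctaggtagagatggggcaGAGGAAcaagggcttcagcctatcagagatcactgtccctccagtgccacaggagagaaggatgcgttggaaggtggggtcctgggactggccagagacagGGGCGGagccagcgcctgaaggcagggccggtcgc
Havcr2, chr11:46454681-46454930, plus strand: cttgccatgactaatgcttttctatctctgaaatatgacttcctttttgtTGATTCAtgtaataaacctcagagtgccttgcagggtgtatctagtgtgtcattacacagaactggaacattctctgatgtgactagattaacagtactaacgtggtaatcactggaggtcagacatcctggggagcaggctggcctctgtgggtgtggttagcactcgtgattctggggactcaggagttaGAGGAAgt
Dubr, chr16:50732774-50733023, minus strand: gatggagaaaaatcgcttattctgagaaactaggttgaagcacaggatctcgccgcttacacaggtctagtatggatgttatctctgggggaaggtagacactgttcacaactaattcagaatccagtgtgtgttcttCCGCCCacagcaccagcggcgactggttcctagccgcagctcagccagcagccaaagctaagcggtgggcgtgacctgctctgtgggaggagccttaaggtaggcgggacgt
Rnf128, chrX:139610370-139610619, plus strand: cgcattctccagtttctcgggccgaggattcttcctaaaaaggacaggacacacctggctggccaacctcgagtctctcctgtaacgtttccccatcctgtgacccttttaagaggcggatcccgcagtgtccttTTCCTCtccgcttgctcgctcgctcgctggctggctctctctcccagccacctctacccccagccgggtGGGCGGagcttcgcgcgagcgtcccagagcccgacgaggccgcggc
Of the 8 members with a promoter entry, counted over 300 bases from 250 before to 50 after the start, 5 held the PU.1 core (Pgm2l1, Havcr2, Ulbp1, Rnf128, Alox5), against 28.3% of all 32851 promoters. The GC-box was in 5 (35.7% of all), the NFAT core in Plscr4 and Ulbp1 (21.4%), AP-1 in Havcr2 (7.81%), the E-box in Pgm2l1 (7.15%) and the C/EBP motif in 0 (10.8%). Alox5 and Rnf128, which moved in opposite directions between titles, both held a PU.1 core and a GC-box. A match of letters shows neither a site nor binding.

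Genes that work with the members were followed in 10 lists. Of 82 such genes tested, edgeR called 0 at R40D3 (5 higher and 2 lower at an unadjusted p under 0.05) and 0 at R0D3 (2 higher and 1 lower), and DESeq2 called 0 in both. Averaged over genotypes, 11 rose (13.4%, against 15.6% of all genes) and 17 fell (20.7%, against 10.3%) at R40D3. DESeq2 gave 9 and 23, and the replicate block 14 and 26, against 21.3% and 17.2% of all genes with the block. In the leukotriene pathway, Alox5ap, which presents arachidonic acid to 5-lipoxygenase, fell by 0.42 on the log2 scale (SE 0.12, edgeR adjusted p = 0.0354) and Pla2g4a, the phospholipase that releases it, by 0.45 (SE 0.13, adjusted p = 0.0372), while Alox5 rose. No other of the 14 pathway genes tested passed in that fit. With the replicate block more of them passed (edgeR). Among them, Lta4h and Cotl1 each fell by 0.22 (adjusted p = 0.0172 and 0.0257) and Ptgs1 rose by 0.28 (adjusted p = 0.0165).

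Among laminins and their receptors, the receptor subunit Itga6 fell by 0.67 (SE 0.085, edgeR adjusted p = 0.00132). In all, 2 of the 17 genes tested in that list rose and 3 fell. Of the RAMP partners of Calcrl, Ramp1 averaged 5.71 CPM and fell by 0.91 (SE 0.22, edgeR adjusted p = 0.0214), and Ramp2 and Ramp3 averaged 0.0765 and 0.00758 CPM. Klrk1, which encodes the NKG2D receptor for Ulbp1, averaged 0.0227 CPM. A further NKG2D ligand, Raet1d, fell by 1.23 (SE 0.30, edgeR adjusted p = 0.0215) at a mean of 2.03 CPM.

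Of the Tim-3 companions, Fyn, a kinase that binds its tail, fell by 0.64 (SE 0.082, edgeR adjusted p = 0.0014) and the ligand Hmgb1 by 0.33 (SE 0.064, adjusted p = 0.00828), 2 of 5 tested. The phosphoglucomutases Pgm1, Pgm2 and Pgm3 rose by 0.23 (SE 0.070), 0.44 (SE 0.068) and 0.43 (SE 0.13), with edgeR adjusted p of 0.0475, 0.00317 and 0.0442, whereas Pgm2l1 fell. DESeq2 called Pgm2 but neither Pgm1 nor Pgm3 (adjusted p = 0.149 and 0.0764). That list had 4 rises and 2 falls among 10. Among scramblases, Xkr8 rose by 0.51 (SE 0.093, edgeR adjusted p = 0.0061) and Plscr3 fell by 0.35 (SE 0.082, adjusted p = 0.0183). Of 8 relatives and partners of Rnf128, 3 fell (Rnf13, Rnf130 and Rnf150, by 0.37, 0.37 and 0.46) and none rose. Near the other members, Angpt2, stored with Vwf in endothelial granules, rose by 0.83 (SE 0.19, edgeR adjusted p = 0.0171), and the integrin subunit Itgb3, also an osteoclast marker, by 5.33. Dppa2, the neighbour of Dubr, had 0 counts in all 8 libraries.

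Markers of other cells were compared beside these values, and their part in the members' values was not tested. Summed endothelial markers (18 genes) ran from 14.4 to 29.9 CPM over all 8 libraries. At R40D3 they were 28.1 and 18.7 in WT and 20.2 and 14.4 in LysM-cKO, and Cdh5 averaged 0.312 CPM. Summed megakaryocyte and platelet markers (14 genes) were 188 and 111 CPM in WT R40D3 and 158 and 96.3 in LysM-cKO R40D3, nearly all Pf4, with Itga2b at a mean of 0.578 CPM. At R0D3 they were 205 and 180 CPM in WT and 272 and 232 in LysM-cKO, so that the genotypes did not overlap there, with Vwf also higher in LysM-cKO. That sum was again nearly all Pf4, at means of 186 CPM in WT and 247 in LysM-cKO. Of the 6 platelet markers tested, 1 had a positive log2 fold change at R0D3 (median −0.062). Epithelial markers (12 genes) summed to 0.554 to 1.77 CPM in every library. Stromal fibroblast markers (14 genes) were 583 and 694 CPM in LysM-cKO replicate 2 at R40D3 and R0D3, against 1669 to 2153 in the other 6 libraries.

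The sums of other lists lay apart between the genotypes to differing degrees. Summed osteoclast markers (16 genes) were 28349 and 41384 CPM in WT R40D3 and 14638 and 26905 in LysM-cKO R40D3, with 0 of 16 genes higher and a median log2 fold change of −0.62, against 1128 to 1305 CPM at R0D3. Proliferation markers (20 genes) were 346 and 331 CPM in WT R40D3 and 378 and 668 in LysM-cKO R40D3, and 468 and 660 against 621 and 1371 at R0D3. The gap was thus wider in replicate 2 at both titles. Macrophage markers (18 genes) ran from 31662 to 49832 CPM in WT and from 22153 to 30308 in LysM-cKO. Without Lyz2, the gene into which the LysM Cre is inserted, the sums overlapped, at 11328 to 14577 CPM in WT and 10851 to 14247 in LysM-cKO. Lyz2 itself had means of 32625 CPM in WT R0D3 and 16130 CPM in LysM-cKO R0D3, and 9 of 17 macrophage genes tested were higher at R40D3, with a median of 0.01.

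Neutrophil and granulocyte precursor markers had a positive log2 fold change in 1 of 12 genes tested at R40D3 (median −1.22) and in 1 of 12 at R0D3 (median −0.65), but their sums overlapped at both titles, with 677 and 207 CPM in WT and 327 and 177 in LysM-cKO at R40D3. Dendritic cell markers had a positive value in 2 of 8 genes at R40D3 (median −0.35) and 1 of 8 at R0D3 (median −0.83), with sums of 376 to 472 CPM in WT and 305 to 354 in LysM-cKO over both titles. The edgeR fit called none of the osteoclast, proliferation, macrophage, neutrophil or dendritic genes between genotypes, and with the replicate block it called Oscar and Car2 lower at R40D3. DESeq2 called Lyz2 lower at both titles and H2-Ab1 lower at R40D3. Lymphoid markers (15 genes) summed to 474 and 175 CPM in WT R40D3 and to 269 and 117 in LysM-cKO R40D3. Cd4 made up most of these sums, at means of 305 and 160 CPM. Of the 5 lymphoid genes tested, 3 had a positive value at R40D3, and DESeq2 and the replicate block called Ighm higher. Mast cell and basophil markers (12 genes) summed to 1.39 to 3.24 CPM. An unadjusted p under 0.05 in edgeR was reached at R40D3 by 4% of all genes in the higher and 3.47% in the lower direction, and at R0D3 by 3.02% and 1.40%. At R40D3 it was reached by 5 osteoclast markers, all lower, 2 proliferation markers, both higher, 4 macrophage markers that were higher and 2 lower, 2 neutrophil, 3 dendritic and 3 stromal markers, all lower. At R0D3 it was reached by 7 proliferation markers, all higher, 2 macrophage markers that were higher and 1 lower, 1 neutrophil marker in each direction, 3 dendritic markers, all lower, and 0 osteoclast or stromal markers.

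**Figure D4:**
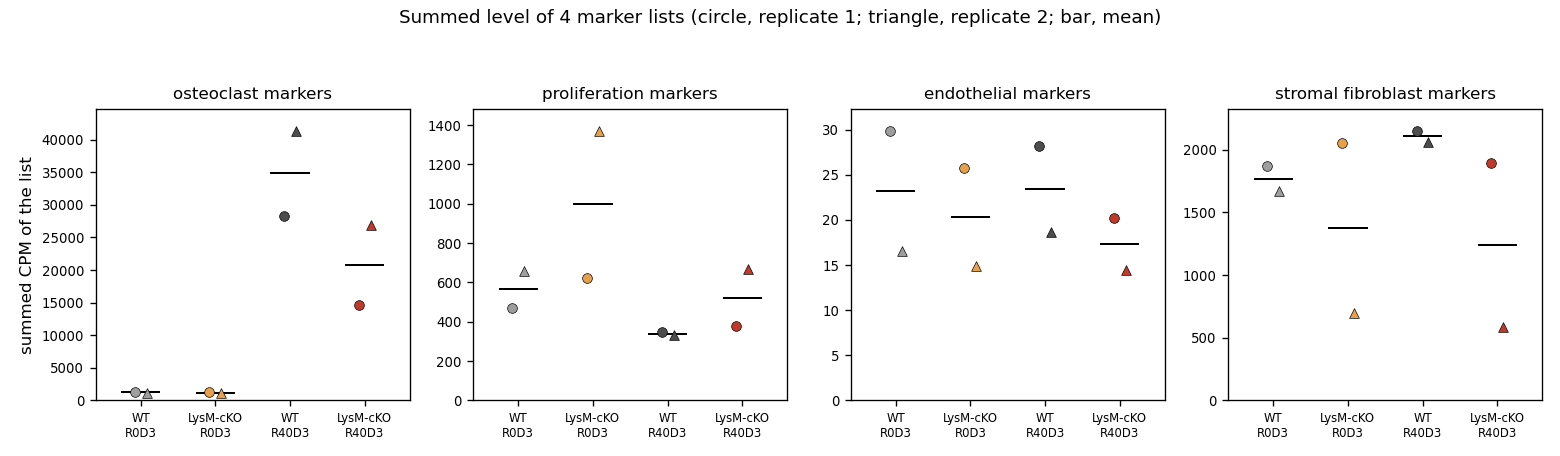
Summed CPM of 4 marker lists (vertical axes, starting at 0) in the 8 culture libraries; points are single libraries and bars the mean of 2. Osteoclast markers are at 1128 to 1305 CPM at R0D3 and lower in LysM-cKO than WT within each replicate number at R40D3, endothelial markers stay under 30 CPM, and stromal markers are low in LysM-cKO replicate 2.

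In E12.5 forelimbs, where Impdh2 was targeted in limb mesenchyme instead, the members did not share a direction. Between Prx-cKO and WT, 0 of the 10 passed (edgeR, 0% of 19987 genes), 2 had an unadjusted p under 0.05 (10.5% of genes), 3 had both Prx-cKO libraries above both WT libraries (22.2%) and 2 below (21%). The median log2 fold change was 0.01, against −0.03 for all genes. Alox5 was at 0.236 and 0.571 CPM in the WT libraries and at 3.13 and 2.31 CPM in Prx-cKO, from 10 and 41 against 90 and 118 counts. The difference was 2.62 on the log2 scale (SE 0.53, adjusted p = 0.38 with edgeR), and DESeq2 called it (adjusted p = 0.0095). Both Prx-cKO libraries were thus above both WT libraries.

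Pgm2l1 was lower in Prx-cKO, at 22.3 and 20.1 CPM against 32.9 and 32.2 in WT (−0.62 on the log2 scale, SE 0.17, adjusted p = 0.436 with edgeR). Vwf was at 8.97 and 8.81 CPM in Prx-cKO and at 6.14 and 5.73 in WT (0.58, SE 0.24, adjusted p = 0.487), and Ulbp1 at 2.99 and 3.17 against 1.72 and 2.47 (0.54, SE 0.36, adjusted p = 0.643). Plscr4 was at 1.70 and 1.66 CPM in Prx-cKO and at 2.88 and 1.95 in WT. Havcr2 had 6 to 14 counts a library, and a difference was not detectable at this depth. Dubr, Lama3, Rnf128 and Calcrl overlapped between genotypes.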

How the data were processed

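Mouse RNA was extracted with TRIzol and sequenced from an mRNA library kit, per the labels' protocols. The deposited values are raw counts of reads for each Ensembl gene, as whole numbers, in 1 forelimb table and 2 culture tables, 1 for each replicate number. The submitters' processing notes name FastQC 0.11.2, Trimmomatic 0.36, HISAT2 2.1.0, DESeq2 1.12.4 and the build GRCm38; the counting tool, annotation and strand use are not given in the sources used here. Of 55401 culture identifiers, 99.5% matched a symbol.

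Counts were tested as deposited with the edgeR 4.0.16 quasi-likelihood test (R 4.3.3, legacy = FALSE), filterByExpr, TMM scaling, group means and Benjamini-Hochberg adjustment over all genes, two-sided, at 0.05. The 8 culture libraries were fitted together and the 4 forelimb libraries alone. Each standard error was taken as |log2 fold change| over the root of F; the script was tested on simulated data. Within every group the replicates differed beyond sampling noise (lowest chi-square per degree of freedom, 11.5). Correlations with other genes used log2 CPM with a prior count of 2 and genes of at least 1 CPM.

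The members and gene lists were chosen with earlier results of these data known. From each list, at most 5 genes were named, those called with the smallest p, then the most abundant; the most alike genes are the 5 with the highest correlation. Lyz2, Ramp2, Ramp3, Klrk1, Cdh5, Itga2b, H2-Ab1 and Dppa2 were named, and the macrophage sum without Lyz2 was added, after the values were seen. A gene that the rule named is left out here. Same-numbered culture libraries deviated together from their group means in all 6 pairs of groups (r from 0.343 to 0.609). The numbers were therefore taken to pair the cultures. Results of the replicate block are given for the members, for Impdh2, for counts of list genes and for some list genes by name. Alternatives were DESeq2 1.42.0, RLE and unscaled library sizes, no filter, legacy = TRUE, the block, the 4 compared libraries alone and leaving out each library. Promoters came from RefSeq (GRCm38.p6; 8 of 10 members matched), and gene models from GENCODE M21.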

Additional observations from a re-analysis of the deposited data

How the results depend on the processing

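Of the 10 genes, 0 passed at R40D3 between genotypes with edgeR, and 9 passed both with DESeq2 and with the replicate block; 0 passed at R0D3 under every alternative run. Leaving out 1 library at a time gave 0 in both comparisons, and 5 to 8 passing genes (8 with all libraries) between titles, the 5 being without WT R0D3 replicate 2. In the forelimb 0 passed except 1, Alox5, with DESeq2. Signs in the cultures were the same under every alternative. In the forelimb, values near 0 changed sign. Dubr (0.0012) was −0.0061 with DESeq2, −0.013 with RLE, −0.092 with unscaled library sizes, −0.033 with no filter and −0.0094 with the replicate block. Lama3 (0.011) was −0.0033 with RLE, −0.085 with unscaled library sizes and −0.031 with no filter. Leaving out 1 library gave −0.30 to 0.28 for Dubr, −0.20 to 0.24 for Lama3, −0.98 to 0.92 for Havcr2, −0.23 to 0.12 for Rnf128 and −0.067 to 0.28 for Calcrl. Unscaled library sizes moved the forelimb median of all genes from −0.030 to −0.13. The cause of these changes was not tested. Across all genes, DESeq2 called 19, 7 and 393 genes (genotype at R40D3, at R0D3 and in the forelimb) where edgeR called 2, 2 and 0, and the replicate block called 30 and 3 in the cultures and 5403 in place of 3635 between titles. With the 4 compared libraries alone edgeR called 0 at each title. Without WT forelimb replicate 1 or 2, 605 and 104 forelimb genes passed. In the forelimb the replicate numbers share only a number (r = 0.261), and the block called 0 genes. With 2 libraries a group, small differences were not detectable.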

Other observations

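With the replicate block, 8 genes outside the 10 were also called higher in LysM-cKO at R40D3. They were Lyz1 (log2 fold change 2.09, edgeR adjusted p = 0.000801), Apoa2 (2.05, adjusted p = 0.022), Alb (1.78, adjusted p = 0.0196), Ighm (0.92, adjusted p = 0.022), Ahnak (0.72, adjusted p = 0.0247), Abcg3 (0.63, adjusted p = 0.0415), Mfsd6 (0.56, adjusted p = 0.022) and Mtmr10 (0.49, adjusted p = 0.0247). Lyz1 encodes a lysozyme and Alb and Apoa2 encode plasma proteins made mainly by the liver. Ighm, the immunoglobulin mu chain, was at a mean of 29.0 CPM in LysM-cKO R40D3 and 15.3 in WT R40D3, and at 40.6 and 38.9 CPM at R0D3.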
